A study of Mus musculus with 8 samples.

Results

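NF-κB is a family of dimeric transcription factors, and the 10 genes described here encode its 5 subunits, 3 of the classical inhibitors that hold it in the cytoplasm, and a pair of enzymes that set its activity. They were chosen by gene symbol, with earlier results of these data known, and are 10 of the 18605 genes in the table of estimated counts. Their shares against all genes therefore describe a chosen set. The subunit genes are *Rela*, *Nfkb1*, *Nfkb2*, *Relb* and *Rel*, the inhibitor (IκB) genes are *Nfkbia*, *Nfkbib* and *Nfkbie*, and the remaining genes are *Tnfaip3* and *Ikbkb*. RNA was measured in C3H10T1/2, an established mouse mesenchymal stem cell line, in 4 groups of 2 libraries. NC and KD-Nap1l2 were taken before osteogenic induction from cells with a non-target control and with a lentiviral shRNA against *Nap1l2*, a nucleosome assembly protein gene. NC-7d and KD-Nap1l2-7d are the same 2 kinds of cells after 7 days in osteogenic medium, which contained dexamethasone, ascorbic acid and β-glycerol phosphate. The line derives from C3H mouse embryo and was grown in DMEM with fetal bovine serum, and each contrast of induction also contrasts the media and 7 days of culture. Which shRNA plasmid was used for these libraries, and how the non-target control was made, are not given in the sources used here, and nothing says that the libraries of a group came from separate cultures, so p-values measure only the spread between these libraries.

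In resting cells IκB proteins bind NF-κB dimers and mask their nuclear localization signals. Receptors for tumour necrosis factor, interleukin-1 and bacterial products activate the IκB kinase complex, which marks IκB proteins for destruction and frees the dimers, while a slower arm processes the *Nfkb2* product p100 to p52 and releases dimers with RelB. Several of the genes that NF-κB switches on, among them *Nfkbia* and *Tnfaip3*, encode its own inhibitors, which closes a feedback loop. RNA levels describe the supply of these components and not where the proteins are, since activation is mostly a matter of phosphorylation, degradation and movement into the nucleus. Glucocorticoids such as the dexamethasone in osteogenic medium are known to restrain NF-κB signalling in many cell types, and NF-κB activity is known to bear on osteoblast differentiation.

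Library totals ran from 17420284 to 19427359 counts. The targeted gene itself was near the limit of detection, with 3 and 3 *Nap1l2* counts in NC, 2 and 7 in KD-Nap1l2, 15 and 5 in NC-7d and 7 and 13 in KD-Nap1l2-7d. *Nap1l2* was thus no lower in the libraries labelled KD-Nap1l2 or KD-Nap1l2-7d, and it does not check those labels at this depth. *Col1a1* and *Vim*, genes of the mesenchymal lineage, were abundant in every library, with 35783 to 114029 and 49733 to 151854 counts. Of the further mesenchymal markers listed, *Eng* had 1029 to 1625 counts and *Thy1* only 19 to 183. Defining markers of blood cells were at or near 0 (*Ptprc* 0 to 4 counts, *Cd3e* 0 to 1, *Cd79a* 0 to 5 and *Itgam* 0 to 6). *Csf1r*, also on the immune marker list, had 5 to 21 counts, and *Adgre1* and *Itgax* had no entry among the genes counted. *Cd14*, which encodes a co-receptor for bacterial lipopolysaccharide, had 134 to 424 counts and made up most of the immune marker list.

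The 250 bases upstream of the start sites of *Nfkbia* and *Nfkbie* are shown because levels of these inhibitor genes differed in opposite directions between induced and uninduced libraries and NF-κB dimers bind such regions. *Nfkbia*, which encodes IκBα (Entrez gene 18035), lies at chr12:55489409-55492647 on the minus strand, and *Nfkbie*, which encodes IκBε (Entrez gene 18037), lies at chr17:45555700-45563169 on the plus strand. The windows are chr12:55492648-55492897 (minus strand) and chr17:45555450-45555699 (plus strand) of GRCm38.p6, from RefSeq, and neither holds an annotated exon. Each is written 5′ to 3′ up to the base before the start site, and capitals mark a match on either strand to the 10-base κB consensus, the class of DNA sequence that NF-κB dimers bind.
*Nfkbia*: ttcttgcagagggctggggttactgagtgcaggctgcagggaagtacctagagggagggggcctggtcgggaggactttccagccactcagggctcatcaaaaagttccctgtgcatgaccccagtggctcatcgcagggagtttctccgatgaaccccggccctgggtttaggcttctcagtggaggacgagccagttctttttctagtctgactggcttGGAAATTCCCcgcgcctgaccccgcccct
*Nfkbie*: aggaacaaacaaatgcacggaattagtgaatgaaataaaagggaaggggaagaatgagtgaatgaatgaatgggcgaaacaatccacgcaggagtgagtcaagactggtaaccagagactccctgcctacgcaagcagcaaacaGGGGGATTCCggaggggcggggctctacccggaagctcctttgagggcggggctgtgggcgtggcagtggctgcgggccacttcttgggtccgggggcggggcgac
The match of *Nfkbia*, GGAAATTCCC, lay 29 to 20 bases upstream of the start site, and that of *Nfkbie*, GGGGGATTCC, lay 106 to 97 bases upstream. *Tnfaip3* held 2 matches, GGGACACCCC at 125 to 116 bases and GGAAATCCCC at 12 to 3 bases upstream of one of its listed start sites. *Rel* held 2 matches that overlap each other, GGGAAATCCC and GGAAATCCCC, and 3 listed windows of *Nfkb2* also held matches. Annotated exons covered 250, 167 and 234 of the 250 bases of these *Nfkb2* windows. They covered 110 bases of the *Tnfaip3* window with matches and 1 base of the *Rel* window. In total, 5 of the 7 member genes in the RefSeq promoter table held a match, against 4.46% of all 27025 genes in it and 3.9% of all 32851 windows. *Rela* and *Nfkbib* held none, and *Nfkb1*, *Relb* and *Ikbkb* were not in this table. A match describes letters in a window and not bound protein.

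Per unit of transcript length, *Nfkbia* RNA was the most abundant of the 10 genes and *Rel* RNA the least. The deposited length-scaled values were read as FPKM, a unit inferred from the values. FPKM of *Nfkbia* ran from 59.8 to 135 over the 8 libraries, above the highest value of any other member, and that of *Rel*, the gene of the lymphoid subunit c-Rel, ran from 0.84 to 1.19, below every other member. *Rela*, which encodes the p65 subunit that carries the transactivation domain of the classical dimer, came next with 27.6 to 36.1 FPKM. *Nfkb1* (22.8 to 29.2 FPKM), the precursor of the DNA-binding subunit p50, and *Nfkb2* (21 to 29.4 FPKM), the precursor of p52, overlapped each other and *Rela*. Ranges of *Nfkbib*, *Ikbkb*, *Relb*, *Tnfaip3* and *Nfkbie* overlapped from one to the next, with means over the 8 libraries of 16.3, 13.8, 11.3, 10.7 and 10.5 FPKM.

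**Figure D1:**
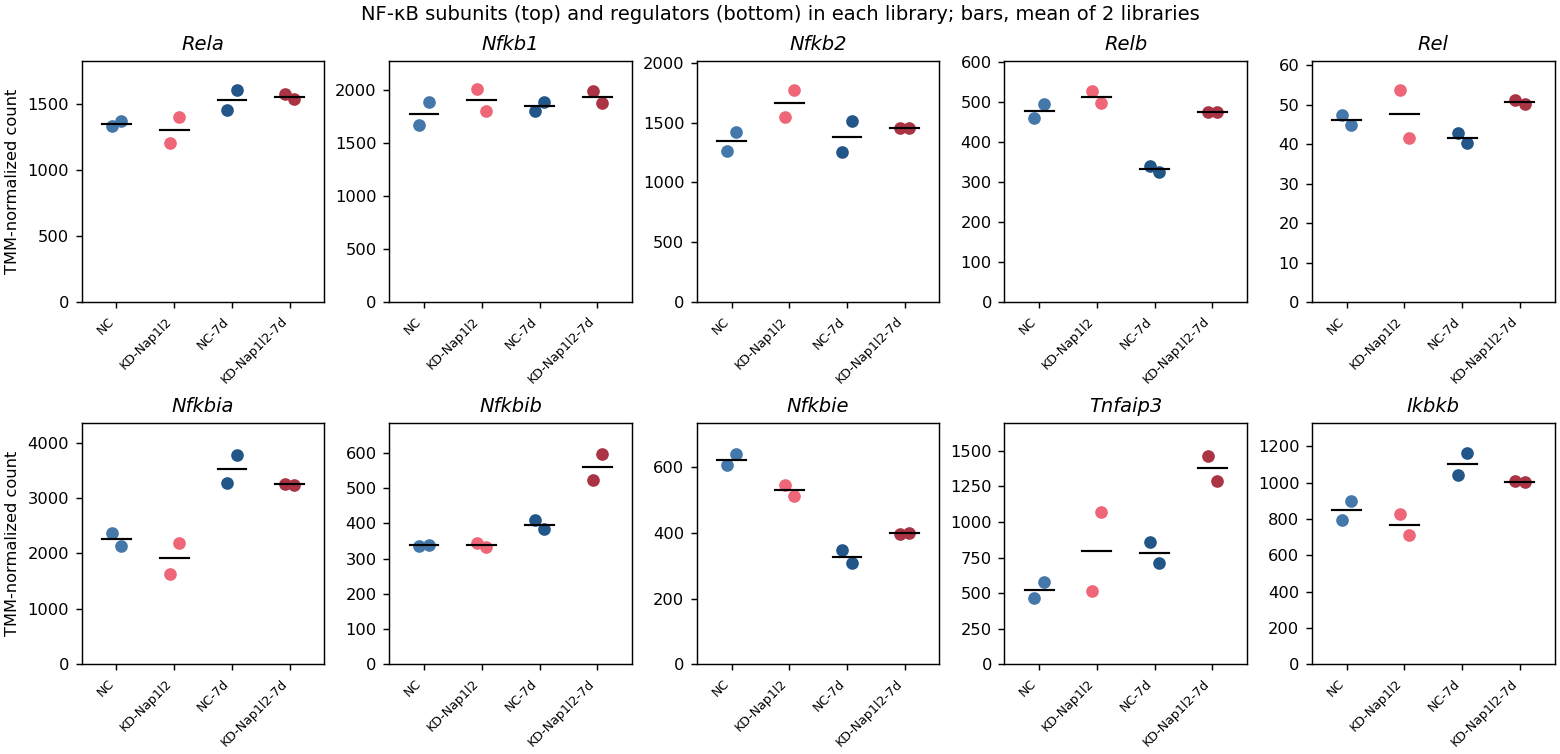
TMM-normalized counts (vertical axes, starting at 0, one scale per gene) of the 10 genes in each library (points) of the 4 groups, with the mean of 2 libraries as a bar. *Nfkbia* was higher and *Nfkbie* lower in all 4 induced libraries than in any library before induction, *Relb* was lowest in NC-7d, and *Nfkbib* was highest in KD-Nap1l2-7d.

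With induction, *Nfkbie* and *Relb* were called lower in the control cells, and *Nfkbia* and *Nfkbib* were called higher in the libraries labelled KD-Nap1l2. *Nfkbia* was also higher in control cells (log2 fold change 0.64) and *Nfkbie* lower in the libraries labelled KD-Nap1l2 (-0.41), short of the threshold. The calls were 2 of 10 members in NC-7d against NC, where 8.21% of all 13470 genes tested passed (3.38% lower). In KD-Nap1l2-7d against KD-Nap1l2 they were 2 of 10, where 14.2% passed (6.84% higher). The test was the quasi-likelihood test of edgeR at an adjusted p under 0.05 over all genes tested. DESeq2 also called 2 members in each (background 11% and 16.8%), *Nfkbia* and *Nfkbie* in control cells and *Nfkbia* and *Nfkbib* in the libraries labelled KD-Nap1l2. The groups did not overlap for 8 of the 10 members in each induction, against 57.8% of all genes in NC and 61.4% in KD-Nap1l2. The median log2 fold change of the members was 0.12 in NC and 0.17 in KD-Nap1l2, beside medians of 0.00 and -0.01 over all genes, and 7 of the 10 lay above 0 in each, against 49.6% and 49.3% of all genes.

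Among the inhibitors, *Nfkbie* showed the clearest fall. IκBε is an inhibitor that binds RelA- and c-Rel-containing dimers and, like IκBα, is itself induced by NF-κB. Its normalized counts, which are counts scaled by TMM factors to a common library size, were 606 and 638 in NC and 349 and 307 in NC-7d. In the libraries labelled KD-Nap1l2, they were 547 and 512 before and 398 and 401 after induction. The 4 induced libraries were all below the 4 uninduced ones, and the induced KD-Nap1l2-7d libraries stayed above those of NC-7d. The log2 fold change of *Nfkbie* was -0.92 (SE 0.13) in control cells, a 1.9-fold lower level with an edgeR adjusted p of 0.00733. In the libraries labelled KD-Nap1l2 the log2 fold change was -0.41 (SE 0.13), with an edgeR adjusted p of 0.0732 that missed the threshold. Without NC replicate 1, the adjusted p of the fall in control cells was 0.0587 at a log2 fold change of -0.96.

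*Nfkbia* encodes IκBα, the inhibitor that is degraded and resynthesized fastest after a stimulus, and its RNA was higher after induction. Normalized counts were 2366 and 2143 in NC and 3271 and 3776 in NC-7d. They were 1634 and 2195 in KD-Nap1l2 and 3257 and 3240.3 in KD-Nap1l2-7d. Every induced library exceeded every uninduced one. *Nfkbia* rose 1.7-fold in the libraries labelled KD-Nap1l2 (log2 fold change 0.76, SE 0.17, edgeR adjusted p = 0.0231). In control cells it was 1.56-fold higher (log2 fold change 0.64, SE 0.16), and the edgeR adjusted p of 0.0534 missed the threshold. The adjusted p was 0.0101 with DESeq2, 0.0377 with limma on log2(FPKM + 1) and 0.0356 with limma on log2(FPKM + 0.1). In edgeR it was 0.04045 with library totals alone and 0.0437 with no filter on low counts. Under the other alternatives the rise in control cells did not pass. The call in KD-Nap1l2 was lost when KD-Nap1l2 replicate 1 was left out (log2 fold change 0.57, edgeR adjusted p 0.0503), and without KD-Nap1l2-7d replicate 1 (0.76, adjusted p 0.133) and without KD-Nap1l2-7d replicate 2 (0.76, adjusted p 0.13).

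For *Nfkbib*, the gene of IκBβ (Entrez gene 18036, chr7:28758251-28766644, minus strand), normalized counts in the uninduced libraries were close together, at 336 and 339 in NC and 344 and 334 in KD-Nap1l2. After induction they were 408 and 384 in NC-7d and 523 and 597 in KD-Nap1l2-7d. The 3 levels, uninduced, NC-7d and KD-Nap1l2-7d, did not overlap. *Nfkbib* rose 1.65-fold in the libraries labelled KD-Nap1l2 (log2 fold change 0.73, SE 0.13, edgeR adjusted p = 0.0133). In NC-7d against NC its log2 fold change was 0.23 (SE 0.13, edgeR adjusted p = 0.334). Without KD-Nap1l2-7d replicate 1 the log2 fold change in KD-Nap1l2 was 0.82 with an edgeR adjusted p of 0.0657, and without KD-Nap1l2-7d replicate 2 it was 0.62 with 0.118. Of the 2169 exon bases of *Nfkbib* in GENCODE vM21, 356 are shared with *Sirt2* or *Ccer2*, and whether the counting used strand is not given in the sources used here, so reads from those bases cannot be told apart.

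Relative to the subunit genes, inhibitor RNA was more abundant in the induced libraries, and *Nfkbia* made up more of it. Summed FPKM of *Nfkbia*, *Nfkbib* and *Nfkbie* per summed FPKM of the 5 subunit genes was 1.19 ± 0.12 (SD, n = 2) for NC, and for KD-Nap1l2 it was 0.95 ± 0.11 (SD, n = 2). After induction this ratio reached 1.59 ± 0.011 (SD, n = 2) for NC-7d and 1.47 ± 0.045 (SD, n = 2) for KD-Nap1l2-7d. All induced libraries (1.44 to 1.6) lay above all uninduced ones (0.875 to 1.27). *Nfkbia* made up 68.8% to 75.5% of the inhibitor FPKM before and 77.5% to 85.5% after induction. The ratio of *Nfkbia* to *Nfkbie* FPKM went in control cells from 5.65 ± 0.6 (SD, n = 2) to 16.9 ± 3.2 (SD, n = 2), and under the KD-Nap1l2 label from 5.66 ± 1.4 (SD, n = 2) to 12.7 ± 0.12 (SD, n = 2). These ratios are a description and were not tested.

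**Figure D2:**
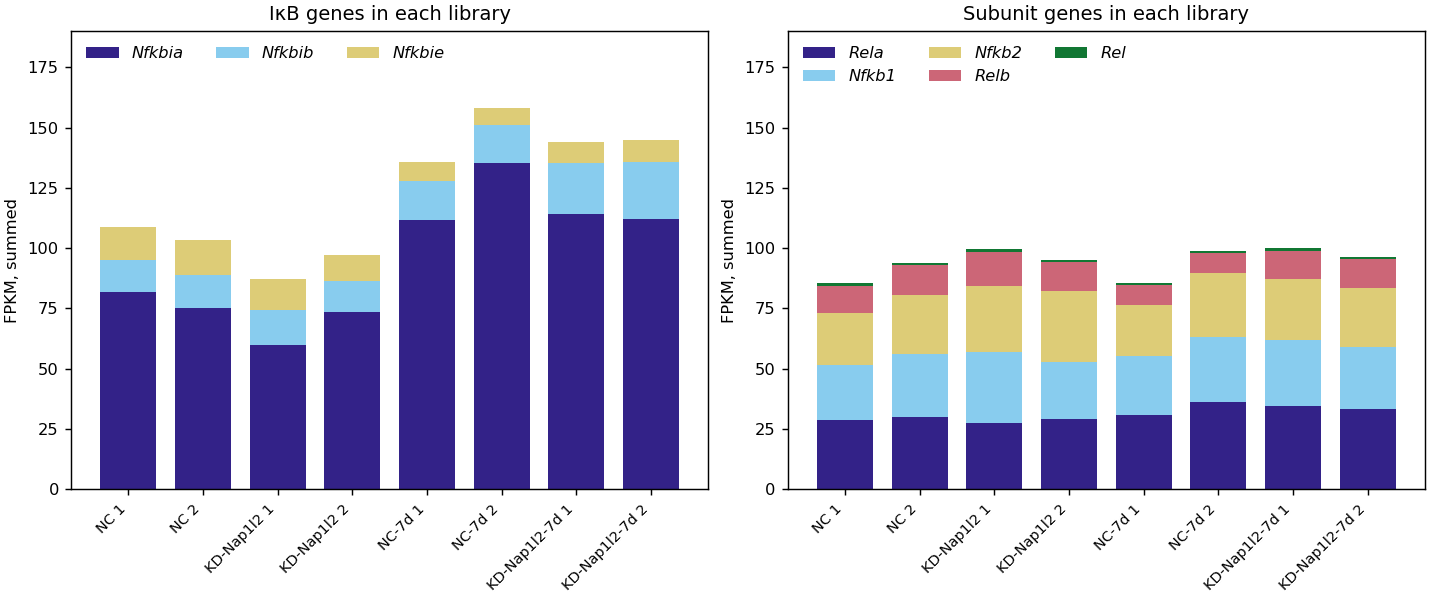
Summed FPKM (vertical axes, from 0 to the same maximum) of the 3 IκB genes (left) and the 5 subunit genes (right) in each of the 8 libraries, stacked by gene. The IκB sum was 87 to 109 in the 4 uninduced libraries and 136 to 158 in the 4 induced ones, mostly *Nfkbia*, while the subunit sum stayed between 85.3 and 100.1.

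Among the subunit genes, *Relb* stood out. RelB is the subunit of the slower, alternative arm, and its gene is itself a target of NF-κB (Entrez gene 19698, chr7:19606217-19629438, minus strand). Normalized counts of *Relb* were 460.0 and 494 in NC and 340.4 and 324 in NC-7d. In the libraries labelled KD-Nap1l2, they were 527 and 496 before and 473 and 473 after induction. The NC-7d libraries were thus the lowest, and the other 6 libraries lay between 460.0 and 527. The fall in control cells was 1.44-fold (log2 fold change -0.52, SE 0.12, edgeR adjusted p = 0.0427), and it stood close to the threshold. Its adjusted p ran from 0.0408 to 0.169 over the alternatives. The call was lost with DESeq2 (0.0531), with the replicate number as a block (0.061), with library totals alone, with no filter on low counts, with only the libraries compared, with limma, and without any one of the 4 libraries compared, namely NC replicate 1 (0.169), NC replicate 2 (0.166), NC-7d replicate 1 (0.119) or NC-7d replicate 2 (0.137). In KD-Nap1l2-7d against KD-Nap1l2, the log2 fold change of *Relb* was -0.11 (SE 0.12, edgeR adjusted p = 0.57).

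None of the remaining subunit genes passed the test with induction. Normalized counts of *Rela* (Entrez gene 19697, chr19:5637442-5648134, plus strand) were 1334 and 1368 in NC, 1455 and 1608 in NC-7d, 1205 and 1398 in KD-Nap1l2, and 1575 and 1535 in KD-Nap1l2-7d. All 4 induced libraries were above the uninduced ones, with log2 fold changes of 0.18 (95% interval -0.10 to 0.46) and 0.26 (-0.03 to 0.54). *Nfkb1* (Entrez gene 18033, chr3:135584655-135691969, minus strand) ran from 1669 to 2015 normalized counts over the 8 libraries, and its groups overlapped in both inductions (log2 fold changes 0.06 and 0.02, with intervals of -0.23 to 0.34 and -0.26 to 0.30). *Nfkb2* (Entrez gene 18034, chr19:46300994-46312400, plus strand) ran from 1252 to 1771, with log2 fold changes of 0.04 and -0.19. *Rel* (Entrez gene 19696, chr11:23736847-23770969, minus strand) had only 40.3 to 53.8 normalized counts, and its intervals were correspondingly wide, -0.78 to 0.48 in NC and -0.54 to 0.70 in KD-Nap1l2. *Nfkb2* shares 830 of its 4584 exon bases with other annotated genes, and the same limit on strand applies.

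*Tnfaip3* encodes A20, a ubiquitin-editing enzyme that shuts off signalling to the IκB kinase complex and is a classical NF-κB target (Entrez gene 21929, chr10:19000910-19015410, minus strand). Its normalized counts were 468 and 581 in NC and 859.6 and 712 in NC-7d. In the libraries labelled KD-Nap1l2 they were 519 and 1069 before and 1464 and 1292 after induction. The KD-Nap1l2 libraries lay far apart, whereas the KD-Nap1l2-7d libraries were above all others. Log2 fold changes with induction were 0.58 (SE 0.30) in NC and 0.80 (SE 0.30) in KD-Nap1l2, with edgeR adjusted p-values of 0.284 and 0.116. Without KD-Nap1l2 replicate 2, the log2 fold change in KD-Nap1l2 was 1.41 and the edgeR adjusted p 0.0117. *Ikbkb* encodes IKKβ, the kinase that phosphorylates IκB proteins (Entrez gene 16150, chr8:22659205-22706589, minus strand). Its normalized counts ran from 713 to 901 in the uninduced libraries and from 1002 to 1163 in the induced ones, without overlap. Its log2 fold changes were 0.38 (SE 0.13, edgeR adjusted p = 0.124) in NC and 0.39 (SE 0.13, edgeR adjusted p = 0.0873) in KD-Nap1l2, so neither passed.

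**Figure D3:**
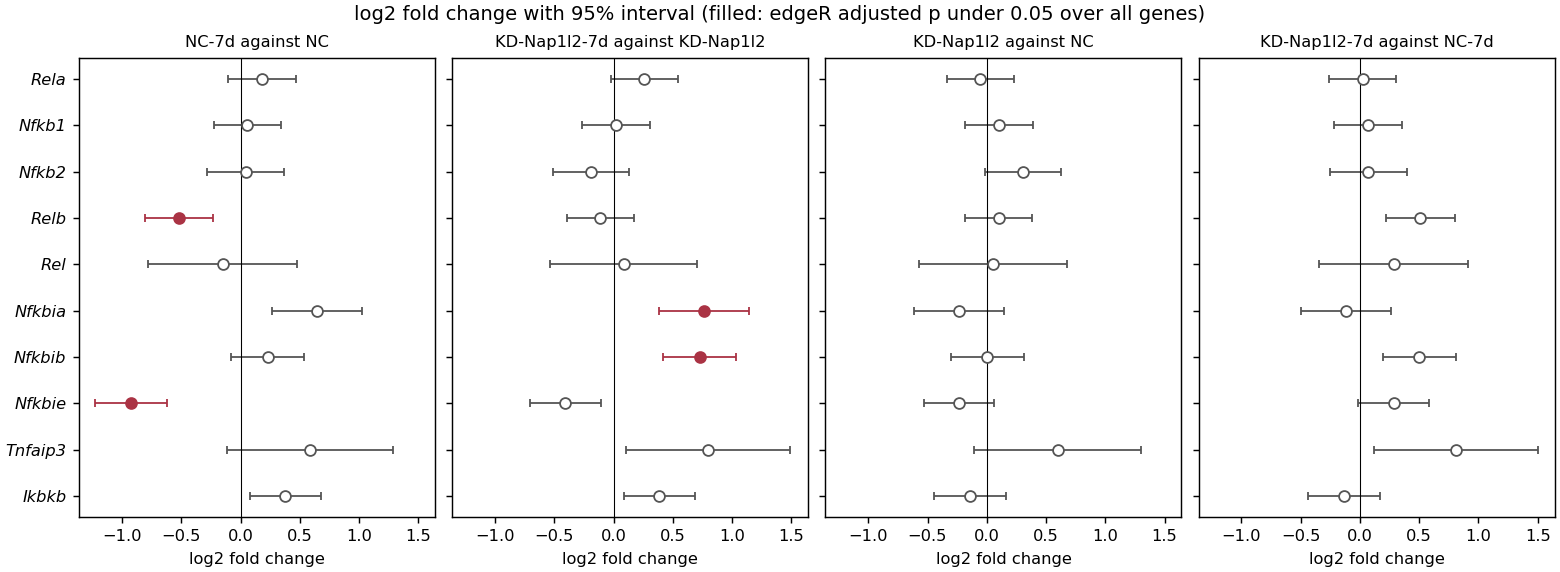
Log2 fold changes (horizontal axes, one panel per contrast) of the 10 genes with 95% intervals from edgeR's fit over 8 libraries, where filled points have an adjusted p under 0.05 over all genes tested. Filled points are *Relb* and *Nfkbie* (lower) in NC-7d against NC and *Nfkbia* and *Nfkbib* (higher) in KD-Nap1l2-7d against KD-Nap1l2, and the 2 knockdown contrasts have none.

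Other measures moved with induction in the same libraries. The mesenchymal marker list summed to a CPM (count scaled to library size) of 19740 to 25880 before and 10950 to 14640 after induction. Of its 8 genes, 2 fell in NC and 4 in KD-Nap1l2, where 8.21% and 14.2% of all genes were called in either direction. Among them was the collagen gene *Col3a1* in both (log2 fold changes -1.46 and -2.20, edgeR adjusted p = 0.0167 and 0.00317). The immune marker list summed to a CPM of 8.45 to 12.6 before and 13.7 to 23.7 after induction, with the defining markers near 0 as given above. The part of these shifts in the values of the members was not tested, and in bulk RNA fewer cells of a type and less RNA per cell cannot be told apart.

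Before induction, no member passed the edgeR test when the libraries labelled KD-Nap1l2 were set against NC, and none did at an unadjusted p under 0.05 or with DESeq2. Over all genes, 0.0817% passed after adjustment, 13.7% at the unadjusted threshold and 3.44% with DESeq2. The groups did not overlap for 3 of the 10 members (*Nfkb2* and *Relb* higher, *Nfkbie* lower), against 43.2% of all genes. The median log2 fold change of the members was 0.03, beside 0.01 over all genes. The largest difference was that of *Tnfaip3*, at 0.60 on the log2 scale (95% interval -0.10 to 1.30, edgeR adjusted p = 0.439). It rested on KD-Nap1l2 replicate 2: without that library the log2 fold change was -0.02, and without KD-Nap1l2 replicate 1 it was 1.03 with an edgeR adjusted p of 0.0376. *Nfkb2* followed with 0.31 (95% interval -0.02 to 0.63, edgeR adjusted p = 0.387). For *Nfkb1*, *Rela*, *Relb* and *Nfkbib* the log2 fold changes lay between -0.05 and 0.10, and all 4 intervals fell within -0.34 and 0.39.

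After induction, no member passed between the libraries labelled KD-Nap1l2-7d and NC-7d, and none of the 13470 genes did in edgeR (0% called), while DESeq2 called 0.577% of all genes and no member. At an unadjusted p under 0.05, 3 of the 10 members passed against 7.85% of all genes, and the groups did not overlap for 7 of 10, against 42.1% of all genes. These 3 were *Relb*, *Nfkbib* and *Tnfaip3*, each higher in KD-Nap1l2-7d. *Relb* was 1.42-fold higher (log2 fold change 0.51, 95% interval 0.22 to 0.80), with normalized counts of 473 and 473 against 340.4 and 324, and an edgeR adjusted p of 0.469. *Nfkbib* was 1.42-fold higher (0.50, interval 0.20 to 0.81, edgeR adjusted p = 0.495), with 523 and 597 against 408 and 384. *Tnfaip3* was 1.75-fold higher (0.81, interval 0.11 to 1.51, edgeR adjusted p = 0.565), with 1464 and 1292 against 859.6 and 712. The median log2 fold change of the members was 0.18, beside -0.01 over all genes. *Rela*, *Nfkb1* and *Nfkb2*, at 0.02, 0.07 and 0.07, had overlapping groups, and their intervals spanned -0.26 to 0.39. *Nfkbia* and *Ikbkb* were lower without overlap, at -0.12 (interval -0.50 to 0.26) and -0.13 (-0.43 to 0.17).

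Whether the knockdown label altered the response to induction was tested as the difference between the inductions. No member passed in edgeR or with DESeq2, which called 0% and 0.759% of all genes. At an unadjusted p under 0.05, 3 of 10 members passed against 7.04% of all genes. These were *Nfkbie* (0.52 on the log2 scale, 95% interval 0.10 to 0.94, edgeR adjusted p = 0.68), *Nfkbib* (0.50, interval 0.06 to 0.93, adjusted p = 0.68) and *Relb* (0.41, interval 0.00 to 0.81, adjusted p = 0.703). Each was relatively higher after induction in the libraries labelled KD-Nap1l2. For *Nfkbia* and *Ikbkb* the differences were 0.12 (interval -0.42 to 0.66) and 0.01 (-0.42 to 0.43). The calls in one induction and not the other are therefore not shown to differ between the 2 kinds of cells. This contrast uses the same libraries as the knockdown contrasts, so its values are not separate evidence.

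Transcript tables showed how firmly each gene count rests on one annotated RNA. *Nfkbia*, *Nfkbie* and *Rel* have 1 transcript each in the table. The leading transcript of *Nfkbib* held 94.8% to 98.1% of the gene's estimated count over the 8 libraries, and that of *Ikbkb* 81.5% to 89.7%. The leading RNA of *Tnfaip3* held 61.1% to 91.2% and that of *Nfkb1* 54% to 72.4%. *Relb* was the least settled, with 6 transcripts and a leading share between 21% and 80.6%. That share was 26% and 62.5% in the NC libraries and 80.6% and 50.6% in NC-7d, so libraries of the same group differed as much as the groups did, and no shift between transcripts could be read.

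The genes whose log2 CPM followed the called members most closely were sought over the 8 libraries among 11279 genes that averaged 50 normalized counts or more. These correlations describe libraries that fall into 4 groups of 2, and they carry no test. *Nfkbie* was followed by *Tlr2* (r = 0.988), *Mpzl1* (0.977) and *Armcx6* (0.966). *Tlr2*, the receptor for bacterial lipopeptides, had 2909 and 2753 normalized counts in NC, 1336 and 978 in NC-7d, 2467 and 2264 in KD-Nap1l2, and 1394 and 1433 in KD-Nap1l2-7d, the same order of groups as *Nfkbie*. *Nfkbia* was followed by *Porcn* (r = 0.986), *Inpp5k* (0.984) and *Dnttip1* (0.977). For *Nfkbib* they were *Nle1* (r = 0.973), *Atg4b* (0.967) and *Zpr1* (0.964), and for *Relb* they were *Slc16a6* (r = 0.96), *Gm4184* (0.947) and *Eed* (0.931).

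Around the 10 genes, 106 further genes of the pathway were listed by role, of which 89 were tested. The lists were chosen with earlier results of these data known. Their shares against all genes are therefore a description and not an independent test. In NC-7d against NC, 8 of these were higher and 3 lower (12.4% called, against 8.21% of all genes), and in KD-Nap1l2-7d against KD-Nap1l2, 21 were higher and 6 lower (30.3%, against 14.2%). Their median log2 fold changes were 0.07 and 0.25, beside 0.00 and -0.01 over all genes. In neither knockdown contrast did edgeR call any of the 89. In each, 16 passed an unadjusted p under 0.05, against 13.7% of all genes before and 7.85% after induction. DESeq2 called 7 before and 3 after induction, against 3.44% and 0.577% of all genes. For the difference between the inductions edgeR also called none of the 89. At an unadjusted p under 0.05, 17 passed against 7.04% of all genes, and DESeq2 called 5 against 0.759%. Of the 11 ligand genes, which include those of tumour necrosis factor and interleukin-1, only 2 had enough counts to be tested and neither was called with induction.

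**Figure D4:**
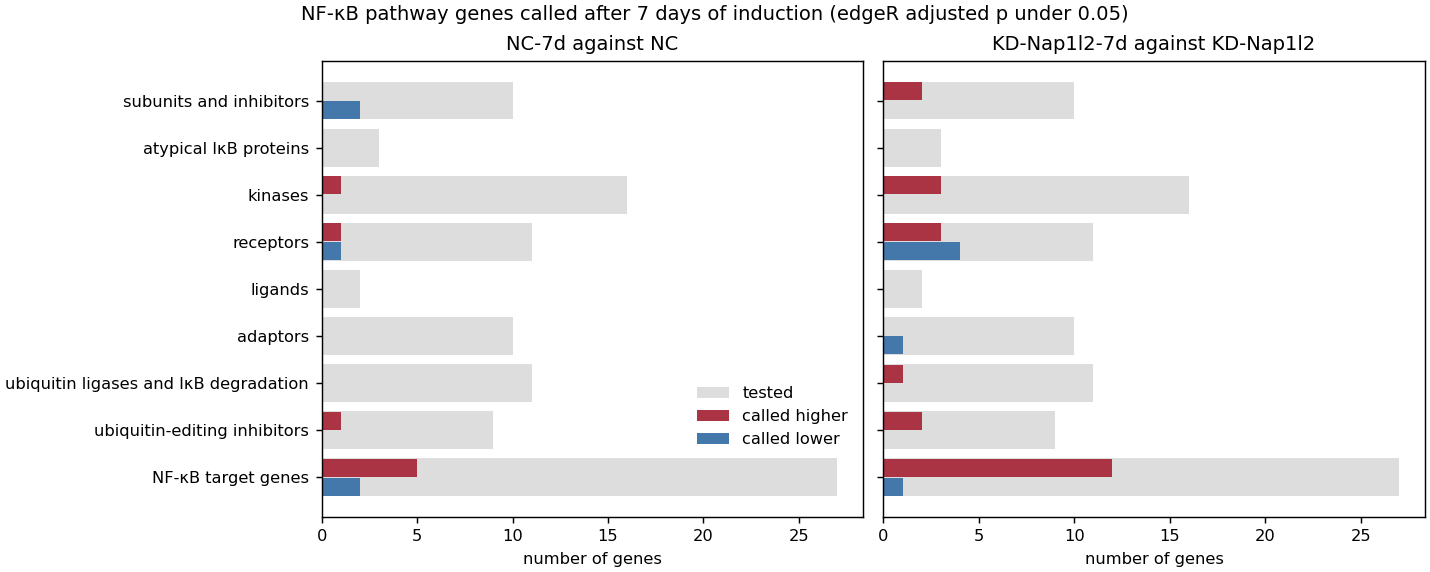
Number of genes (horizontal axes) tested (grey), called higher (red) and called lower (blue) with induction by edgeR at an adjusted p under 0.05, for the 10 subunits and inhibitors and 8 further lists of pathway genes, in NC (left) and KD-Nap1l2 (right). The target genes had 5 higher and 2 lower of 27 tested in NC, and 12 higher and 1 lower in KD-Nap1l2. Of all genes, 8.21% were called in NC and 14.2% in KD-Nap1l2. The lists were chosen with earlier results of these data known. For the difference between the inductions edgeR called none of the 27.

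Among the receptors, *Tnfrsf1b*, which encodes the second receptor for tumour necrosis factor, rose in both inductions (log2 fold changes 1.74 and 1.81, edgeR adjusted p = 0.0236 and 0.0154). Its normalized counts were 379 and 683 in NC, 1973 and 1578 in NC-7d, 419 and 792 in KD-Nap1l2, and 2252 and 1999.7 in KD-Nap1l2-7d. Receptors for bacterial products moved in different directions. *Tlr2* fell in both inductions (log2 fold change -1.29 in NC and -0.74 in KD-Nap1l2, edgeR adjusted p = 0.00499 and 0.0224), *Tlr6* and *Tlr1*, whose products pair with TLR2, fell in KD-Nap1l2 (-1.0 and -1.99, adjusted p = 0.0134 and 0.0193), and *Tlr4*, the receptor for lipopolysaccharide, rose in KD-Nap1l2 (0.65, adjusted p = 0.013). In NC, *Tlr6*, *Tlr1* and *Tlr4* were not called, but their normalized counts moved in the same directions without overlap. *Tlr6* had 213 and 216 in NC and 152 and 163 in NC-7d. *Tlr1* had 385 and 186 in NC and 120 and 88.2 in NC-7d, and *Tlr4* had 1222 and 1200 against 1692 and 1498. For the difference between the inductions edgeR called 0 of the receptors. Over the list, 1 of 11 receptors rose and 1 fell in NC, and 3 rose and 4 fell in KD-Nap1l2. Of all genes, 8.21% and 14.2% were called in these inductions.

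Of the 16 kinase genes, which include regulatory subunits of kinase complexes, 1 rose in NC and 3 rose in KD-Nap1l2. The shares called over all genes were 8.21% and 14.2%. *Ikbke*, the gene of the IKK-related kinase IKKε, rose in both (log2 fold changes 0.76 and 0.95, edgeR adjusted p = 0.0236 and 0.00837), with 397 and 409 normalized counts in NC against 649 and 719 in NC-7d, and 404 and 528 in KD-Nap1l2 against 902 and 899 in KD-Nap1l2-7d. *Irak2*, a kinase of the interleukin-1 receptor pathway, and *Ikbkg*, which encodes the regulatory subunit NEMO of the IκB kinase complex, rose in KD-Nap1l2 (0.84 and 0.46, edgeR adjusted p = 0.0118 and 0.0384). Before induction, normalized counts of *Ikbkg* were 1277 and 1250 in KD-Nap1l2 against 1494 and 1620 in NC. After induction they were 1765 and 1704 in KD-Nap1l2-7d against 1609 and 1432 in NC-7d. *Irak2* had 280 and 231 against 303 and 312 before, and 479 and 436.5 against 378 and 385 after induction. In KD-Nap1l2 the ubiquitin ligase gene *Birc3* (0.83, adjusted p = 0.0136) and *Tnip1*, whose product binds A20 (0.80, adjusted p = 0.00629), also rose. The adaptor gene *Traf5* fell (-1.04, adjusted p = 0.047). It had 256 and 349 normalized counts in KD-Nap1l2 and 106 and 188 in KD-Nap1l2-7d, and 235 and 265 in NC and 219 and 193 in NC-7d. *Birc3* had 323 and 270 normalized counts in KD-Nap1l2 against 438 and 524 in NC, and 541 and 515 in KD-Nap1l2-7d against 551 and 595 in NC-7d. *Tnip1* had 1226 and 1279 in KD-Nap1l2 against 1602 and 1780 in NC, and 2234 and 2115 in KD-Nap1l2-7d against 1945 and 1802.5 in NC-7d. *Otud7b*, which encodes a deubiquitinase of the A20 family, rose in both (0.67 and 0.46, adjusted p = 0.0153 and 0.0374). Calls in the remaining lists were 1 of 9 ubiquitin-editing inhibitors in NC and 2 of 9 in KD-Nap1l2, and, in KD-Nap1l2, 1 of 11 ubiquitin ligases and 1 of 10 adaptors.

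Target genes of NF-κB, most of which are also driven by other factors, formed the longest of these lists. Of 30 listed, 27 were tested. In NC 5 rose and 2 fell and in KD-Nap1l2 12 rose and 1 fell, with median log2 fold changes of 0.17 and 0.83. Over all genes 8.21% and 14.2% were called, with medians of 0.00 and -0.01. For the difference between the inductions, edgeR called none of the 27 and DESeq2 called 5, against 0% and 0.759% of all genes. The median of that difference was 0.465, beside -0.02 over all genes. This list too was chosen with earlier results of these data known. *Lcn2*, which encodes the iron-trapping protein lipocalin-2, had 2718 and 3120.4 normalized counts in NC, 20644 and 18620.0 in NC-7d, 1888 and 1212 in KD-Nap1l2, and 46624 and 35217 in KD-Nap1l2-7d. The chemokine gene *Cxcl1* had 657 and 601 in NC, 1445 and 1896 in NC-7d, 601 and 691 in KD-Nap1l2, and 4387 and 3332 in KD-Nap1l2-7d. Both were highest in KD-Nap1l2-7d, without overlap with any other group. Log2 fold changes of *Lcn2* were 2.75 in NC and 4.72 in KD-Nap1l2 (edgeR adjusted p = 0.00165 and 0.000199), and those of *Cxcl1* were 1.41 and 2.58 (0.00621 and 0.00059). *Bcl2l1*, the gene of the survival protein Bcl-xL, rose in both (1.38 and 1.5, edgeR adjusted p = 0.00192 and 0.000952). The acute-phase gene *Saa3* rose from 6.89 and 13.1 normalized counts in NC to 244 and 173 in NC-7d (log2 fold change 4.36, edgeR adjusted p = 0.00975). It had 21.5 and 4.16 in KD-Nap1l2 and 1053 and 447 in KD-Nap1l2-7d. *Ccl7*, another chemokine gene, rose in KD-Nap1l2 (log2 fold change 1.37, edgeR adjusted p = 0.00082). Its normalized counts were 2223 and 2273.5 in NC, 1229 and 1278 in KD-Nap1l2, 2659 and 2400 in NC-7d, and 3292 and 3179 in KD-Nap1l2-7d. Between KD-Nap1l2-7d and NC-7d the list's median log2 fold change was 0.42, beside -0.01 over all genes. Of the 27, 23 lay above 0, against 49.1% of all genes. No gene of the list was called by edgeR and 3 were called by DESeq2, against 0% and 0.577% of all genes.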

How the data were processed

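RNA-seq of 8 C3H10T1/2 libraries in 4 groups of 2 was analysed, with groups taken from the labels. The authors deposited estimated counts per gene and per transcript without normalization (for 41.1% of genes some count is not whole), and a second set of columns that no source names, taken here as FPKM (scaled to transcript length and library size) from their values: their sums differ between libraries, and count over value and library total is near constant for a gene. The submitters' processing notes name BWA, Bowtie2, RSEM and GRCm38.p6, without roles or versions. Tables of the authors' own comparisons (fold changes and p-values) were not used.

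Estimated counts were rounded, scaled by TMM and filtered by filterByExpr to 13470 of 18605 genes. A single edgeR fit (version 4.0.16, R 4.3.3) covered all 8 libraries with 1 mean per group and no pairing, and 5 contrasts were tested by the quasi-likelihood test with Benjamini-Hochberg adjustment over all genes and a threshold of 0.05. Standard errors are the log2 fold change over the square root of F, and intervals are 95%. FPKM serve for levels between genes, and normalized counts for contrasts. Totals were 17420284 to 19427359 counts, so a count of 0 allows up to 3 counts, or a CPM of 0.154 to 0.172, and such limits cover counting error only. Libraries of a group differed by more than sampling noise, so none was counted as a duplicate.

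Alternatives were DESeq2 1.42.0, RLE scaling, library totals alone, no filter, a minimum of 10 counts per library, fitting only the 4 libraries of a contrast, blocking on replicate number, limma 3.58.1 on log2(FPKM + 1) and log2(FPKM + 0.1), and leaving out each library. The tests were tested on a simulated knockdown before induction, with 200 changed genes that were changed 2-fold or 4-fold. Recovered 2-fold and 4-fold changes numbered 64 and 98 with edgeR, 66 and 98 with DESeq2, and 60 and 100 with limma. False calls numbered 9, 21 and 6. Not every 2-fold change was recovered, so a gene that did not pass may still differ. The members and all gene lists were chosen with earlier results of these data known. Named genes are the members and *Nap1l2*, at most 4 called genes per list and contrast by smallest p among those averaging 50 normalized counts or more, and the 3 genes most correlated with each called member. *Col1a1*, *Vim*, *Eng*, *Thy1* and the blood cell markers are named as a check of the cell type. *Tlr2* is also named for its likeness to *Nfkbie*, and its value in KD-Nap1l2 was added after it was seen. Promoter windows come from the RefSeq table of GRCm38.p6 and exon overlaps from GENCODE vM21, read with Python 3.11.15. Figures were drawn with matplotlib 3.10.9.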

Additional observations from a re-analysis of the deposited data

Results flagged for a closer look

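The knockdown contrast of *Nfkbie* pointed in opposite directions before and after induction, with no overlap between libraries at either time. Over all genes, the groups did not overlap for 43.2% before and 42.1% after induction. Before induction, the libraries labelled KD-Nap1l2 had 547 and 512 normalized counts against 606 and 638 in NC (log2 fold change -0.23, 95% interval -0.53 to 0.06). After induction they had 398 and 401 against 349 and 307 (0.29, interval -0.02 to 0.59). Neither contrast passed the test, and the difference of 0.52 on the log2 scale (SE 0.18) had an edgeR adjusted p of 0.68.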

How the results depend on the processing

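With 2 libraries per group, the number of members called moved with single libraries. In the induction of NC it was 2, and 1 with only the libraries compared and 1 with the replicate number as a block, and it ran from 0 to 1 when 1 library was left out. In the induction of KD-Nap1l2 it was 2, and 0 to 3 when 1 library was left out (1 when KD-Nap1l2 replicate 1 was dropped, 0 when either KD-Nap1l2-7d library was, and 3, with *Tnfaip3*, when KD-Nap1l2 replicate 2 was). Before induction the knockdown contrast called 0 members, and 0 to 1 when 1 library was left out, the 1 being *Tnfaip3* without KD-Nap1l2 replicate 1. A group that loses a library is left with 1, which is assumed to vary like the others. Replicate numbers do not pair the samples (correlations of same-numbered deviations -0.136 to 0.124), and apart from the call of *Relb* in NC the block changed no call of a member. Differences near 0 changed sign. With library totals alone, the difference between the inductions of *Ikbkb* was -0.010, and with only the libraries compared, the knockdown contrast of *Nfkbib* before induction was -0.0019. Leaving out 1 library at a time, log2 values ran from -0.094 to 0.12 (*Ikbkb*), -0.13 to 0.049 (*Nfkb1*), -0.080 to 0.35 (*Nfkbia*), -0.028 to 0.19 (*Rela*) and -0.22 to 0.83 (*Tnfaip3*) for the difference between the inductions. They ran from -0.029 to 0.15 (*Nfkb1*) and -0.10 to 0.17 (*Nfkb2*) for induction in NC, and from -0.057 to 0.10 (*Nfkb1*) and -0.087 to 0.28 (*Rel*) for induction in KD-Nap1l2. For the knockdown contrast they ran from -0.015 to 0.024 (*Nfkbib*), -0.15 to 0.22 (*Rel*), -0.17 to 0.050 (*Rela*) and -0.016 to 1.03 (*Tnfaip3*) before induction, and from -0.060 to 0.21 (*Nfkb2*) and -0.049 to 0.10 (*Rela*) after. In all, 633 of the members' log2 values under an alternative kept direction and side of the threshold, 17 lost a call, 7 gained one and 23 changed sign. Over all genes, the knockdown contrast before induction called 11 genes, but 453 with DESeq2, 160 with no filter, 33 and 18 with limma, 4 with at least 10 counts, 4 with the block, 0 with only the libraries compared and 0 to 562 without 1 library. DESeq2 called 78 genes after induction and 100 for the difference, where edgeR called 0. No filter called 1 gene for the difference, and leaving out NC-7d replicate 1 called 1 gene after induction and 19 for the difference. The inductions called 1106 genes in NC and 1912 in KD-Nap1l2, but as few as 122 without NC replicate 1 and 305 without KD-Nap1l2-7d replicate 1. Of the 89 further pathway genes, DESeq2 called 7 and 3 in the knockdown contrasts, 18 with induction in NC (11 with edgeR) and 5 for the difference. No filter called 3 and limma 1 before induction, leaving out KD-Nap1l2 replicate 1 called 8, and the inductions fell to 2 in NC and to 7 in KD-Nap1l2 (27 with all libraries) without 1 library. The cause of these shifts was not tested. Depth limits *Rel*, with under 60 normalized counts, and *Nap1l2*.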
